A study of Homo sapiens with 6 samples.

Results

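Interferon-stimulated genes are the genes that cells switch on when interferon binds its receptors, and this account follows 47 of them in MDA-MB-231 cells given selamectin. Members were taken by symbol from a list of well-known responders. A member counted as measured when a transcript cluster, the group of array probes assigned to 1 locus, carried its symbol and no other, and where there were several, the one with the highest mean across the 6 arrays was used. By that rule 45 of the 47 were measured, out of 18417 genes in all. GBP1 lay on a cluster that also carries another symbol, and STAT2 was not analysed here.

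Selamectin arrays, 3 in number, came from cells that received it at 1 µM for 24 h, and they are set against 3 arrays whose titles call them untreated, although the protocol names a vehicle. Selamectin is a veterinary antiparasitic of the avermectin class, which the series title presents as an inhibitor of the SIN3 corepressor. MDA-MB-231 is an established human breast cancer line that lacks estrogen receptor, so both groups share 1 genetic background and the results speak for that line alone. The design text calls the replicates independent without saying how the cultures were kept apart.

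Type I interferons, such as interferon beta, bind a receptor made of IFNAR1 and IFNAR2, and the kinases JAK1 and TYK2 then activate a signalling complex that holds STAT2 and IRF9. This complex binds the interferon-stimulated response element, a short sequence in the promoters of many responding genes. Type II interferon acts on a different sequence, the gamma-activated site. The products detect viral RNA, block its translation, trap virus particles and load peptides for display to T cells, and breast cancer cells are known to differ widely in how much of this programme they run without infection.

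Member genes carry the letters of the response element in their promoters far more often than genes in general. Members were taken as well-known responders, so this describes the list and says nothing about these arrays. RefSeq windows of 250 bases before to 50 bases after the start site (GRCh38.p14) were found for 38 of the 47 members, and not for GBP2, IFIT2, IFITM2, IRF7, MX2, OAS2, OASL, TRIM22 and USP18. The response element was searched on both strands as 2 copies of GAAA with any 2 bases between them. It occurred in 28 of 38 member genes, or 73.7%, against 4.38% of 27305 genes with a window. A stricter form, with a C directly after the second copy, occurred in 21 of 38 member genes, or 55.3%, against 0.952% of all, and every match to it is also a match to the shorter form. The gamma-activated letters, TTC and GAA with any 3 bases between them, read alike on both strands and occurred in 13 of 38 member genes, or 34.2%, against 9.38% of all. A gene with several windows counted as a match if any held the letters, and in 5 member genes a match to the shorter response element overlapped a gamma-activated match. The 5 stretches that follow are the 160 bases before the start site on the plus strand, 5′ to 3′, with the matches to the shorter form in capitals. IFIT3, IFIT1 and IFIT5 are shown because they lie in 1 gene cluster, where IFIT3 was called and the other two were not, and PARP14 and B2M because they were the lowest of the members by log2 change.
IFIT3: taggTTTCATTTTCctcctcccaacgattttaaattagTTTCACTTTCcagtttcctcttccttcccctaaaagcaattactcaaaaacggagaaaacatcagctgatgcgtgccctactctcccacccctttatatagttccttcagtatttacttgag
IFIT1: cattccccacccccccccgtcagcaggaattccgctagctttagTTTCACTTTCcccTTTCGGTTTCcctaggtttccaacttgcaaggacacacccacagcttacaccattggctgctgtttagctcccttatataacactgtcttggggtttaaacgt
IFIT5: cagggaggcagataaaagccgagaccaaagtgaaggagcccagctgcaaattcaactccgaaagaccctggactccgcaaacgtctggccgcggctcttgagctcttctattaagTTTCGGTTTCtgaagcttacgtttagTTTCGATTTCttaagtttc
PARP14: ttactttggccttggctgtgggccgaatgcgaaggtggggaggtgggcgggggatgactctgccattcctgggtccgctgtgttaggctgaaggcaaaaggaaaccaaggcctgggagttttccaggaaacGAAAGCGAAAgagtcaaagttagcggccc
B2M: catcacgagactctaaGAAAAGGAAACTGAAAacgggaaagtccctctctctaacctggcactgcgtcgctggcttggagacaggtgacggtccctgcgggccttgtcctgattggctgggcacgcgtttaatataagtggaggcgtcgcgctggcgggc
These lie at chr10:89327837-89327996, chr10:89392463-89392622, chr10:89414408-89414567, chr3:122680679-122680838 and chr15:44711357-44711516 (GRCh38.p14, RefSeq). The IFIT3 stretch is the first of 2 windows that RefSeq gives for that gene. A further match in IFIT5 crosses the start site and is not shown. The 2 matches of B2M overlap and form 1 run of capitals. A match describes these letters only and was not tested as a binding site.

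Of the interferon-stimulated genes, OASL and IFIT3 were higher with selamectin by the test, and none of the other 43 measured passed it. Values are log2 expression, differences are selamectin minus untreated, and a gene was called when its Benjamini-Hochberg adjusted p in limma, taken over all 18417 genes, was under 0.05. Of 45 measured members, 2 rose and 0 fell, which is 4.44% called higher beside 2.41% of all genes called higher and 2.28% called lower, or 4.69% in either direction. At an unadjusted p under 0.05, 6 members were higher and 3 lower in limma, 9 in all, beside 19.9% of all genes in either direction. The 6 are 13.3% of the members, beside 11.7% of all genes, and the 3 stand beside 8.21% of all genes. All 3 selamectin arrays lay above all 3 untreated arrays for 9 members, or 20.0%, beside 16.0% of all genes, and below them for 4 members, or 8.89%, beside 9.30%. The groups thus did not overlap for 13 members, beside 25.3% of all genes. The median log2 change was 0.039 over the members and 0.044 over all genes, and 30 members had a positive change, which is 66.7% beside 63.0%. These shares lie near the background and are no result about the members as a group.

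**Figure D1:**
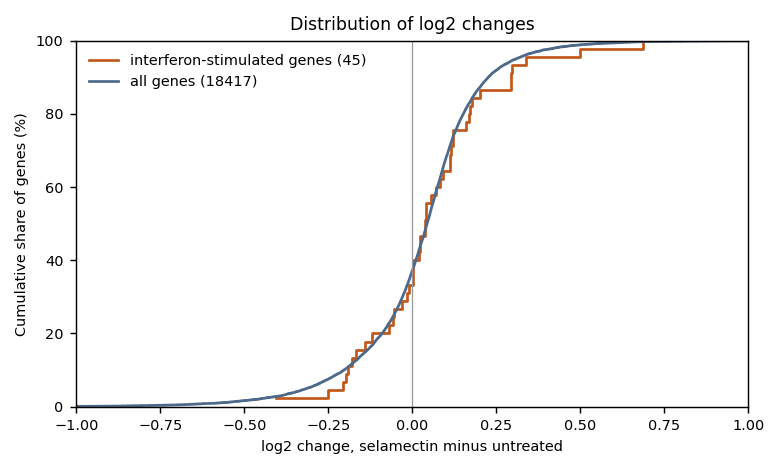
Cumulative share of genes, in percent, against the log2 change (selamectin minus untreated), for the 45 interferon-stimulated genes and for all 18417 genes. The curves nearly coincide, with medians of 0.039 and 0.044, and at the right end OASL stands at 0.69 and IFIT3 at 0.50.

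The members' log2 changes were similar in size to those of all genes. A change of at least 0.2 log2 units in either direction was seen for 10 members, or 22.2%, beside 23.1% of all genes, and one of at least 0.5 for 1 member, or 2.22%, beside 2.75%. The 95% interval of the change lay inside 0.5 log2 units on either side of 0 for 39 of 45 members, or 86.7%, beside 85.5% of all genes. It lay inside 1 log2 unit for all 45, beside 99.2% of all genes. Those intervals are not adjusted for the number of genes. Averaged over the 45 members and set against the untreated mean, the arrays stood at 0.072, 0.060 and 0.023 for selamectin, against -0.0087, -0.025 and 0.034 for the untreated arrays, so the groups overlapped. Over all genes the same averages were 0.039, 0.049 and -0.0068 with selamectin, against -0.017, 0.0032 and 0.014 untreated.

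Over all genes, pairs of arrays had r from 0.9949 to 0.9971 inside a group and from 0.9913 to 0.9954 between the groups. Selamectin array 3 stood apart on the second principal component, which held 20.8% of the variance. It was the lowest of its group for 23 of 45 members, or 51.1%, beside 48.1% of all genes. Among the untreated arrays, array 1 was lowest for 20 members, or 44.4%, beside 44.5% of all genes. Array 2 was lowest for 16, or 35.6%, beside 35.8%. No batch, scan date or detection call was used here, so whether a dim member was detected at all is not known, and 24 of the 45 had a mean below the median of all genes. Of 10 markers of the MDA-MB-231 line, 5 had positive and 5 negative log2 changes, with CD44 called higher (limma adjusted p = 0.020) and SPARC called lower (adjusted p = 0.033). Each is 1 of 10, beside 2.41% of all genes called higher and 2.28% called lower. At an unadjusted p under 0.05 in limma, 3 of these markers were higher and 3 lower, 6 of 10, beside 19.9% of all genes. The groups did not overlap for 6 of the 10, beside 25.3% of all genes. Of 9 luminal and epithelial markers, 5 had positive and 4 negative changes, and none passed. The list was drawn up as genes this line should lack or hold low, which the values do not bear out for all of them. The keratin gene KRT8 averaged a log2 value of 13.79 with selamectin and 13.71 untreated, and KRT18 averaged 13.49 with selamectin and 13.41 untreated (n = 3 each). Both stood above VIM, the highest of the 10 MDA-MB-231 markers, at 12.90 with selamectin and 12.67 untreated. FOXA1 (9.77 with selamectin and 9.76 untreated) and ERBB2 (9.08 and 9.17) also lay above 8.24, the median level of all genes, and the rest lay below it. Without detection calls no marker can be called absent.

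The OAS family holds enzymes that make a messenger molecule when they bind double-stranded RNA, and OASL, a relative without that enzyme activity that enhances RIG-I signalling. OASL had log2 values of 8.19, 8.47 and 8.27 on the selamectin arrays, against 7.73, 7.67 and 7.48 on the untreated arrays. Every selamectin array was above every untreated array. Its means were 8.31 ± 0.143 with selamectin and 7.62 ± 0.130 untreated (SD, n = 3 each), a rise of 1.61-fold with a log2 change of 0.69 ± 0.11 (SE, limma adjusted p = 0.0074). The call was kept whichever array was left out, with adjusted p between 0.0078 and 0.042. It was also kept in the 9 other fits that keep all arrays and include OASL, though adjusted p there reached 0.0494, close to the threshold. The 3 synthases did not pass. OAS1 stood at 9.41, 9.54 and 9.02 on the selamectin arrays, against 9.31, 9.23 and 9.36 on the untreated arrays, and its selamectin arrays spanned both sides of the untreated range. Its log2 change was 0.023 (95% interval -0.26 to 0.30), that of OAS2 was -0.011 (-0.17 to 0.15) and that of OAS3 was -0.18 (-0.41 to 0.052). Within each array, OASL relative to OAS1 was 0.66 log2 units higher with selamectin, and relative to OAS3 0.86 units higher, and for both ratios the groups did not overlap. Such ratios were computed for 11 pairs of related or neighbouring genes, picked after the values were seen, and the groups did not overlap for 8 of them. Each of these 8 holds OASL, IFIT3, IFIT2 or PARP14, whose own groups did not overlap, so the count is no separate support. Among single genes the groups did not overlap for 25.3%, and no such share was computed over pairs of all genes. None of the ratios was tested.

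The IFIT proteins bind foreign RNA and block its translation, and their genes lie in 1 stretch of chromosome 10. IFIT3, a scaffold that stabilizes IFIT1 on RNA, had log2 values of 7.26, 7.08 and 7.13 on the selamectin arrays, against 6.52, 6.72 and 6.74 on the untreated arrays. All selamectin arrays were above all untreated ones. Its means were 7.16 ± 0.090 with selamectin and 6.66 ± 0.121 untreated (SD, n = 3 each), a rise of 1.41-fold (log2 change 0.50 ± 0.091 SE, limma adjusted p = 0.014). Leaving out untreated array 1 ended the call (adjusted p = 0.060, log2 change 0.43), and so did entering all 33297 clusters in the fit (adjusted p = 0.075). IFIT2, the direct neighbour of IFIT3, had values of 6.59, 6.50 and 6.53 on the selamectin arrays, against 6.34, 5.98 and 6.29 on the untreated arrays. Here too the groups did not overlap, yet its change of 0.34 did not pass (adjusted p = 0.074). IFIT1, the cap-binding member of the family, stood at 8.54, 8.31 and 8.29 on the selamectin arrays, against 8.36, 8.22 and 8.56 on the untreated arrays. Its change was 0.0017 (95% interval -0.25 to 0.25), and that of IFIT5 was 0.0022 (-0.26 to 0.26). Both carry the response element letters printed above, as does IFIT3. Within each array, IFIT3 relative to IFIT1 was 0.50 log2 units higher with selamectin, with no overlap between groups. With IFIT1 at 0.0017, this ratio restates the change of IFIT3 and is no separate support. Like the other ratios, it was not tested.

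Leukocytes and plasmacytoid dendritic cells express many of these genes strongly, so their markers are set beside OASL and IFIT3. Over 10 measured leukocyte markers of 11, the mean log2 value ran from 6.46 to 6.48 on the selamectin arrays, against 6.41 to 6.54 on the untreated arrays. The markers differed in level, with CD68 highest at 10.04 with selamectin and 10.07 untreated, and NKG7 next at 7.89 and 7.91. None of the 10 passed in limma, and 0 had an unadjusted p under 0.05. Over 3 measured plasmacytoid markers of 4, it ran from 5.83 to 5.96 on the selamectin arrays, against 5.82 to 5.94 on the untreated arrays, again with 0 at an unadjusted p under 0.05. Among 5 endothelial markers 0 passed, with 1 higher, VWF, and 1 lower, CDH5, at an unadjusted p under 0.05 in limma. CDH5 had a log2 difference of -0.59 (limma adjusted p = 0.067), with all selamectin arrays below all untreated ones. Its means were 8.93 with selamectin and 9.52 untreated. VWF had a log2 difference of 0.18 (adjusted p = 0.25). Among 7 fibroblast markers 1, PDGFRB, was called higher, or 14.3%, beside 2.41% of all genes. Its log2 difference was 0.34 (limma adjusted p = 0.040), with means of 7.68 with selamectin and 7.34 untreated. At an unadjusted p under 0.05 in limma, 2 of the 7 were higher and 0 lower, beside 11.7% and 8.21% of all genes. All selamectin arrays lay above all untreated ones for 3 of the 7, or 42.9%, beside 16.0% of all genes. Fewer cells of a type and less RNA per cell cannot be told apart in these arrays. An array gives no true zero, so no marker stands at 0, and the part of other cells in the rise of OASL and IFIT3 was not tested.

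**Figure D2:**
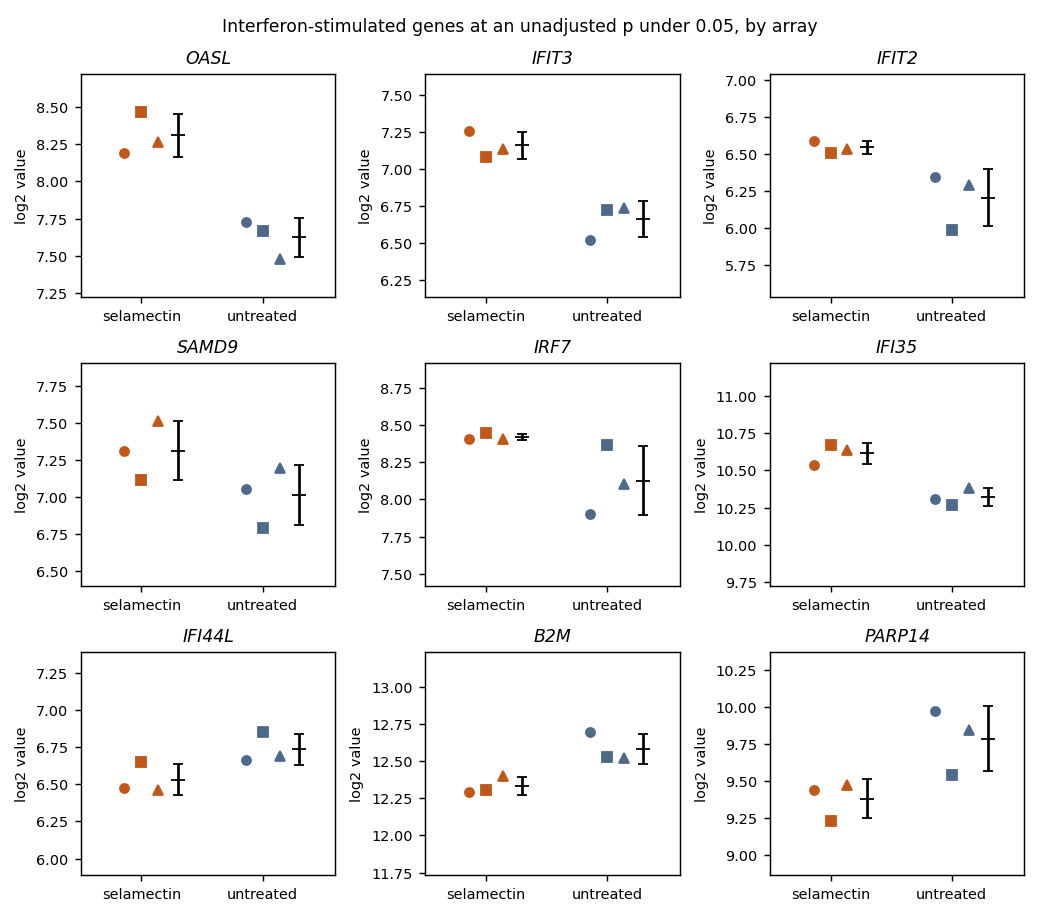
Log2 value on each array for the 9 members with an unadjusted limma p under 0.05, selamectin left of untreated. Circles, squares and triangles are arrays 1, 2 and 3, the black marks are means ± SD (n = 3), and every panel spans 1.5 log2 units. OASL and IFIT3 show the widest gaps upward, at 0.69 and 0.50 log2 units, and PARP14 the widest downward, at -0.40.

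The transcription factors that carry the interferon signal gave no call. IRF7, which amplifies the production of type I interferon, had values of 8.41, 8.45 and 8.41 on the selamectin arrays, against 7.90, 8.37 and 8.10 on the untreated arrays. The selamectin arrays lay close together and just above the highest untreated array, and the untreated arrays were spread over a wider range. Its change was 0.30 ± 0.12 (SE, limma adjusted p = 0.19), and only without untreated array 2 did it pass among the fits that left out 1 array (adjusted p = 0.0498), as it did with array weights (adjusted p = 0.022). IRF1, an early factor of the type II response, had a log2 difference of 0.037 (95% interval -0.20 to 0.28). IRF9, the DNA-binding subunit of the complex with STAT2, had a log2 difference of -0.030 (-0.23 to 0.17).

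Outside the OAS and IFIT families, 6 measured members sense RNA or act on RNA and nucleotides, and none of these passed. IFIH1, the long double-stranded RNA sensor MDA5, stood at 6.49, 6.47 and 6.73 on the selamectin arrays, against 6.82, 6.64 and 6.80 on the untreated arrays. The groups overlapped, and its change was -0.19 (adjusted p = 0.29). DDX60, a helicase linked to RIG-I signalling, had a log2 difference of -0.016, and EIF2AK2, the kinase PKR that halts translation, of 0.12, neither passing. ISG20, an RNA exonuclease, had values of 8.32, 8.38 and 8.26 on the selamectin arrays, against 8.09, 8.19 and 8.19 on the untreated arrays. Every selamectin array was above every untreated array, and the change was 0.16 (adjusted p = 0.35). RSAD2, the antiviral enzyme viperin, stood at 5.69, 5.48 and 5.69 on the selamectin arrays, against 5.79, 5.68 and 5.55 on the untreated arrays. It and its neighbour CMPK2, a mitochondrial nucleotide kinase, had log2 differences of -0.054 and 0.12. The groups overlapped for RSAD2 and not for CMPK2, and neither passed.

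Proteins that trap or block virus particles included the GTPases and the membrane proteins. MX1, the dynamin-like GTPase that blocks influenza virus, stood at 6.19, 6.34 and 5.99 on the selamectin arrays, against 6.02, 6.05 and 5.94 on the untreated arrays. Selamectin array 3 lay within the untreated range, and the change was 0.17 (adjusted p = 0.34). MX2 had a log2 difference of 0.12 and GBP2, a guanylate-binding protein, of 0.11. All 3 measured GTPases thus had positive changes, as did 63.0% of all genes, and none passed. On every array the 3 lay below 6.45, the 25th percentile of mean level over all genes. MX1 (limma adjusted p = 0.029) and MX2 (adjusted p = 0.0496) passed with array weights, a fit that called 1822 of all genes higher and 1464 lower. A second, separate cluster of GBP2 had a log2 difference of 0.024. IFITM1, which stops viral fusion at the cell surface, had values of 12.87, 12.79 and 12.64 on the selamectin arrays, against 12.82, 12.87 and 12.77 on the untreated arrays. Its change was -0.056, beside 0.055 for IFITM2, 0.039 for IFITM3 and 0.092 for BST2, the tether that holds budding virus. The groups overlapped for all 4, and the IFITM genes are close copies whose probes can be shared.

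ISG15 is a ubiquitin-like protein that HERC5 attaches to new proteins and USP18 removes. Its log2 values were 8.26, 8.21 and 8.36 on the selamectin arrays, against 8.12, 8.21 and 8.17 on the untreated arrays. All selamectin arrays lay above the untreated ones, the lowest of them by a margin that vanishes at 2 decimals, and the change of 0.11 ± 0.089 (SE) did not pass (limma adjusted p = 0.52). HERC5 had a log2 difference of -0.20, HERC6 of -0.070 and USP18 of 0.0020 (95% interval -0.27 to 0.27), without a call.

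The genes named for interferon induction alone had differences of either sign and no call. IFI35, a leucine zipper protein, had values of 10.53, 10.67 and 10.64 on the selamectin arrays, against 10.31, 10.27 and 10.39 on the untreated arrays. Its groups did not overlap, and its change of 0.29 ± 0.086 (SE) did not pass (limma adjusted p = 0.079). IFI44L had values of 6.48, 6.65 and 6.46 on the selamectin arrays, against 6.67, 6.86 and 6.69 on the untreated arrays. All selamectin arrays were below all untreated arrays, the highest by a narrow margin, with a change of -0.21 (adjusted p = 0.22). IFI44, its direct neighbour, had a log2 difference of 0.084, IFI6, a mitochondrial survival protein, of -0.12 and IFI27 of 0.023.

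PARP14 and PARP9, ADP-ribosyltransferase family members from the same stretch of chromosome 3, had changes of opposite sign. PARP14 stood at 9.44, 9.23 and 9.48 on the selamectin arrays, against 9.97, 9.54 and 9.84 on the untreated arrays. Every selamectin array was below every untreated array, and the change of -0.40 ± 0.12 (SE) was the lowest among the members, without passing (limma adjusted p = 0.089). Without untreated array 2 it passed (adjusted p = 0.038), as it did with array weights (adjusted p = 0.0052). PARP9 had a log2 difference of 0.18 (adjusted p = 0.47), and within each array PARP9 relative to PARP14 was 0.58 log2 units higher with selamectin, with no overlap between groups. Like the other ratios, it was not tested. SAMD9, a growth-suppressing antiviral factor, had values of 7.31, 7.12 and 7.51 on the selamectin arrays, against 7.06, 6.79 and 7.20 on the untreated arrays. The groups overlapped, and the change was 0.30 (adjusted p = 0.22). Its neighbour SAMD9L had a log2 difference of 0.042.

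Both measured genes of peptide display to T cells were on the lower side. B2M, the light chain of class I molecules, had values of 12.29, 12.30 and 12.40 on the selamectin arrays, against 12.70, 12.53 and 12.52 on the untreated arrays. All selamectin arrays were below all untreated arrays, with a change of -0.25 ± 0.076 (SE, limma adjusted p = 0.092), which did not pass. With a second quantile normalization it did (adjusted p = 0.048), and with array weights too (adjusted p = 0.024). TAP1, a subunit of the peptide transporter, stood at 10.66, 10.71 and 10.72 on the selamectin arrays, against 10.86, 10.90 and 10.82 on the untreated arrays. Its groups did not overlap either, and the change was -0.17 (adjusted p = 0.28). TAP1 has 3 clusters in the table with identical values, so they count as 1 measurement.

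The remaining members held no call. TRIM21, an antibody receptor of the cytosol and ubiquitin ligase, had values of 9.09, 9.26 and 9.05 on the selamectin arrays, against 8.91, 8.95 and 8.94 on the untreated arrays. The groups did not overlap, and its change was 0.20 (limma adjusted p = 0.26), beside 0.021 for TRIM22. XAF1, a proapoptotic factor, stood at 6.50, 6.46 and 6.58 on the selamectin arrays, against 6.39, 6.53 and 6.41 on the untreated arrays. It had a log2 difference of 0.069, SP110, a nuclear body protein, of 0.17, EPSTI1 of 0.041 and LGALS3BP, a secreted galectin ligand, of -0.14, with overlapping groups for all of them.

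**Figure D3:**
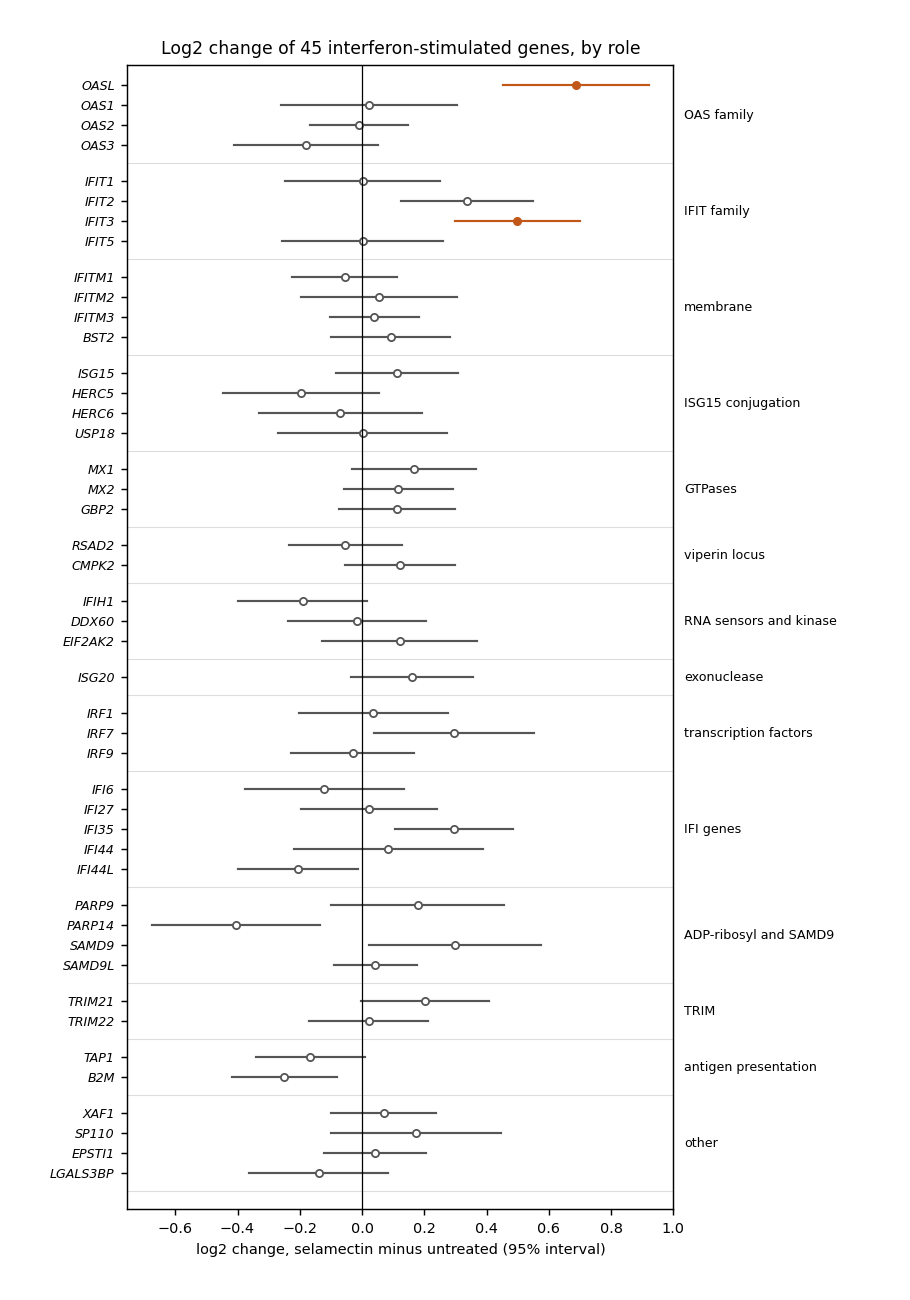
Log2 change (selamectin minus untreated) with its 95% interval from limma for each of the 45 measured members, grouped by role. Filled orange points are the 2 genes with an adjusted p under 0.05, OASL and IFIT3, and open points did not pass.

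The changes were also set beside the promoter letters, and the order of the medians differed with the form of the response element searched. With the shorter form, the 27 measured members with a match had a median log2 change of 0.0022 and the 9 with a window and no match 0.042. With the stricter form the order was the opposite, with 0.039 for 21 members with a match and 0.023 for 15 without. For the gamma-activated letters the medians were 0.023 for 13 members with a match and 0.039 for 23 without. IFIT3, at 0.50, matches both forms of the response element, and PARP14, at -0.40, matches its shorter form and not the stricter one. OASL, IFIT2 and IRF7 have no window in the table and enter no group. All these medians are descriptions with no test. Within each comparison they lie closer together than the median standard error of 1 gene's change, 0.094, so their order is no result.

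Other genes of the interferon pathway, which are no members, gave 3 calls among 47 measured of 55 listed. MYD88 and STING1 rose, which is 4.26% of the 47 beside 2.41% of all genes, and PSMB9 fell, beside 2.28% of all genes called lower. At an unadjusted p under 0.05 in limma 9 were higher, or 19.1% beside 11.7% of all genes, and 4 lower, beside 8.21%. Of 9 measured interferon genes, none passed. IFNB1, interferon beta, had a log2 difference of 0.15 (adjusted p = 0.22). Its means were 4.93 with selamectin and 4.79 untreated, below 6.45, the 25th percentile of mean level over all genes. IFNA2, IFNE, IFNK, IFNW1 and IFNG also lay below that level, and IFNL1, IFNL2 and IFNL3 above it. Without detection calls, whether any of these interferon genes was expressed is not known. No receptor gene among 6 passed, with IFNAR1 at 0.30 (0.12) and IFNGR1, of the type II receptor, at 0.25 (0.19), adjusted p in brackets. Among 8 kinases and factors, JAK1 stood at -0.25 (0.12), JAK2 at -0.37 (0.19) and STAT3 at 0.22 (0.12), none passing. None of 6 inhibitors, such as SOCS1 and SOCS3, had an unadjusted p under 0.05. IFNA1, HLA-B, HLA-C and HLA-F lie only on clusters with several symbols, and the other listed genes without a value were not analysed here.

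Both pathway calls in the upward direction were adaptors of innate sensing. MYD88, the adaptor of Toll-like and interleukin-1 receptors, had log2 values of 9.31, 9.34 and 9.32 on the selamectin arrays, against 8.65, 9.00 and 8.85 on the untreated arrays. The selamectin arrays lay together above all untreated arrays, and the change was 0.49 ± 0.10 (SE, limma adjusted p = 0.026). STING1, the adaptor of cytosolic DNA sensing, had values of 9.68, 9.73 and 9.79 on the selamectin arrays, against 9.41, 9.34 and 9.24 on the untreated arrays. Its groups did not overlap, and it rose by 0.40 ± 0.091 (SE, adjusted p = 0.033). TLR3, the endosomal double-stranded RNA receptor, stood at 0.33 (adjusted p = 0.10) and TBK1, the kinase that activates IRF3, at 0.25 (0.23), without passing. CGAS, which makes the messenger that STING1 binds, had a log2 difference of 0.066, and RIGI of -0.012. MYD88 kept its call only without selamectin array 3 or untreated array 2, and STING1 only without selamectin array 3. Leaving out any other array ended it, with adjusted p up to 0.10 for MYD88 and 0.15 for STING1. Entering all clusters in the fit ended both.

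Near TAP1, the immunoproteasome subunit gene PSMB9 fell. It had log2 values of 10.27, 10.43 and 10.41 on the selamectin arrays, against 10.71, 10.80 and 10.70 on the untreated arrays. All selamectin arrays were below all untreated arrays, with a change of -0.37 ± 0.088 (SE, limma adjusted p = 0.039), which is 1.29-fold lower. It kept the call only without selamectin array 3 among the fits that left out 1 array (adjusted p up to 0.12), and lost it with all clusters in the fit. PSMB8, in the same run of genes on chromosome 6, had a log2 difference of -0.27 (adjusted p = 0.16) and TAP2 of -0.16 (0.34). PSMB10, another immunoproteasome subunit, had the opposite sign at 0.32 and did not pass (adjusted p = 0.052). It passed in 6 of the 9 other fits that keep all arrays, with adjusted p over the 9 from 0.0059 to 0.12, and in none that left out 1 array. PSMB8 and PSMB9 each have 3 clusters with identical values. TAP2 has 3 clusters whose values differ, and only the one with the highest mean is given here.

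**Figure D4:**
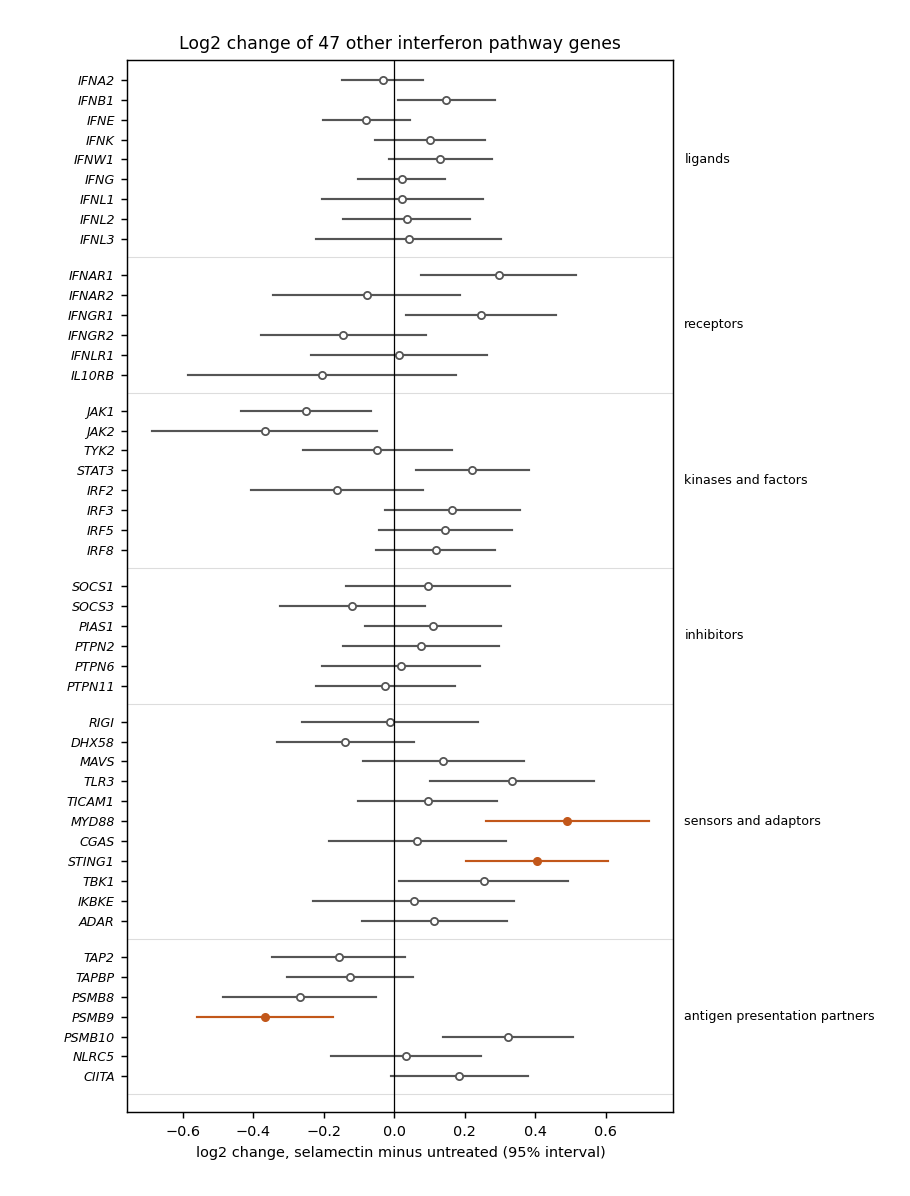
Log2 change (selamectin minus untreated) with its 95% interval from limma for the 47 other interferon pathway genes, grouped by role. Filled orange points passed an adjusted p of 0.05, and they are MYD88 at 0.49, STING1 at 0.40 and PSMB9 at -0.37.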

How the data were processed

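Whole-transcript array values for 33297 transcript clusters on 6 arrays were used. The authors deposited values taken as log2 expression, whose range suits RMA output, without a header that names the base. Per the submitters' processing notes, Affymetrix Expression Console, RMA and Transcriptome Analysis Console were used, with no version, role or setting. RMA as commonly run quantile-normalizes arrays together, which hides a shift of all genes. Apart from that step, changes of dim genes can be compressed in array values. No source used here names the genome build of the array annotation. Array medians lay between 7.47 and 7.51. No depth exists for arrays, and their number limits precision, with a median standard error of 0.094 log2 units.

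Arrays were grouped by title. Genes were named from the platform's annotation, in which 19460 clusters had 1 symbol, 1754 several and 12083 no entry. The fit used limma 3.58.1 in R 4.3.3 (lmFit, eBayes with an intensity trend) over 18417 genes, two-sided, with no replicate block and no filter. In 1 simulated data set this fit recovered most planted changes but made more false calls than its nominal rate, which bears on calls near the threshold. Members, gene lists and roles were chosen with earlier results of these data known. Values on every array are given for members with an adjusted or unadjusted p under 0.05 or an absolute log2 change of at least 0.3, and for the first member of each other role. OAS1, IFIT1 and TAP1 were added after their values were seen. Pathway genes are named at an unadjusted p under 0.05, and the few others named were chosen after their values were seen. A second, stricter form of the promoter letters is reported beside the first because the medians differ in order. Alternatives were other scalings, filters, eBayes settings, array weights, averaged clusters, all clusters, a replicate block, a threshold of 0.10 and leaving out each array.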

Additional observations from a re-analysis of the deposited data

How the results depend on the processing

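Leaving out each array in turn gave 1 to 3 interferon-stimulated genes higher and 0 to 1 lower, with a median log2 change of 0.024 to 0.069. Over all genes 76 to 685 were then higher and 100 to 464 lower, and over the pathway genes 0 to 2 and 0 to 1. With array weights, 7 interferon-stimulated genes were higher (OASL, IFIT2, IFIT3, MX1, MX2, IRF7 and IFI35) and 4 lower (OAS3, IFIH1, PARP14 and B2M), among 1822 and 1464 of all genes and 6 and 3 of the pathway genes. Those weights lean on untreated array 3, at 5.11 against 0.45 to 1.22 for the others. With all clusters in the fit, 1 interferon-stimulated gene was higher, among 104 higher and 145 lower of all clusters and 0 pathway genes in either direction. At a threshold of 0.10, 4 were higher and 2 lower, among 879 and 723 of all genes. A second quantile normalization called 1 interferon-stimulated gene lower, B2M. Leaving out genes below the median level removes OASL and IFIT3, which leaves 0 higher and a median of 0.0022. The cause of the other shifts was not tested. The median filter, second quantile normalization, median centring and the other settings not named here kept the counts over all genes within 1.5 times. A replicate block kept both interferon-stimulated calls (OASL adjusted p = 0.016, IFIT3 0.032) and left 1 pathway gene higher, MYD88, and 0 lower, with STING1 at adjusted p = 0.060 and PSMB9 at 0.059. Same-numbered arrays deviated from their group means with r of -0.011, 0.24 and -0.14 for numbers 1, 2 and 3, so the numbers are not taken as pairs.

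Signs turned only for interferon-stimulated genes that were not called, with adjusted p of at least 0.46. They turned with array weights for IFIT1 -0.10, IFIT5 -0.036, IFITM1 0.015, RSAD2 0.021, IRF1 -0.018, IFI27 -0.035, SAMD9L -0.015, TRIM22 -0.0043 and EPSTI1 -0.031, with a second quantile normalization for IFITM3 -0.0074 and IRF9 0.0054, and with median-centred arrays for OAS2 0.0022. Leaving out 1 array gave ranges across 0 for OAS1 -0.086 to 0.17, OAS2 -0.064 to 0.021, IFIT1 -0.079 to 0.090, USP18 -0.097 to 0.11, IRF1 -0.057 to 0.14, IFIT5 -0.11 to 0.097, IFITM2 -0.059 to 0.15, RSAD2 -0.11 to 0.015, DDX60 -0.10 to 0.055, IFI27 -0.071 to 0.073, TRIM22 -0.053 to 0.090, IFITM1 -0.11 to 0.0085, EIF2AK2 -0.016 to 0.22, IRF9 -0.070 to 0.011, EPSTI1 -0.020 to 0.10, IFI6 -0.19 to 0.0073, IFI44 -0.10 to 0.22 and HERC6 -0.19 to 0.048. The array design limits how dim genes can be read, and 11 of the 45 members lay below the 25th percentile of mean level.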
